A study of Zea mays with 6 samples.

Results

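DNase I hypersensitive sites (DHSs) that were narrow and had nearly the same boundaries in 2 maize tissues were collected. The tissues were husk and the inner stem tissue of V2 seedlings (V2-IST). A DHS of V2-IST and a DHS of husk were paired when they overlapped by at least 1 bp and when each overlapped exactly 1 DHS of the other list. There were 11584 such one-to-one pairs, from 18485 DHSs in V2-IST and 15261 in husk. In 10056 pairs the narrower DHS measured less than 1000 bp, and these are called narrow pairs. A narrow pair was a member when the difference between its starts and the difference between its ends, taken without sign and summed, came to at most 30 bp. The members were thus chosen by measured start and end positions of both lists. They numbered 1266 pairs, 12.6% of the narrow pairs. The other 8790 narrow pairs served for comparison.

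DHSs are stretches where chromatin is more open to the nuclease DNase I than its flanks, because nucleosomes are sparse or displaced by bound proteins. Promoters, enhancers and other cis-regulatory elements usually carry such sites, and in plants many are open in several tissues while others open in a particular tissue or stage. A DHS in these lists is an interval that a peak caller drew around a cluster of DNase I cuts. Its edges therefore follow the cut density and the caller's threshold, and they do not mark the end of a bound protein.

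Both tissues came from the inbred line B73, grown in a greenhouse. V2-IST was taken from V2 seedlings, and husk, the leaves around the ear, from flowering plants with emerging silks before pollination. V2-IST had 2 libraries from 2 biological replicates and husk 3 libraries from 2 biological replicates. Genomic DNA without chromatin (naked DNA), digested in the same way, gave 1 control library. Each tissue is a mixture of cell types, so a shared DHS can be open in different cells of V2-IST and husk. The replicates were merged by the authors into a single list of positions per tissue, and the lists hold no read count, score or replicate value. No difference between members and other pairs can thus be set against the spread between replicates. The intervals given with shares are 95% Wilson intervals. They cover counting error only and ignore that neighbouring DHSs depend on each other, so no test was made and all comparisons are descriptions of these lists. Coordinates are 1-based on AGPv4, the assembly named in the methods of the study, whereas the submitters' processing notes name B73 RefGen_v3. The genes and the sequence at these positions were not analysed here.

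The members amounted to 6.85% of all V2-IST DHSs and 8.30% of all husk DHSs. Because they were narrow, they accounted for less of the covered sequence, 497 kb or 3.94% in V2-IST and 492 kb or 5.12% in husk. Wider DHSs also included pairs with near-identical boundaries. Among the 1528 one-to-one pairs of at least 1000 bp, 158 (10.3%) stayed within the same limit of 30 bp, and over all widths the share was 12.3%.

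The boundary differences of the members, which the rule used, were first described without a test. The summed difference had a median of 17 bp, with the middle 50% of members between 10 and 24 bp. For the other narrow pairs the median was 144 bp, with a middle 50% from 74 to 299.75 bp. Starts of members differed by a median of 7 bp and by 30 bp at most, and ends by a median of 6 bp and by 29 bp at most. Start and end thus moved by similar amounts. Relative to the mean width of the pair, the summed difference of members had a median of 4.53% and a maximum of 17.5%, against a median of 31.9% in the other narrow pairs. The bases covered in both tissues made up 95.6% of the bases covered in either (median, lowest 83.9%). In the other narrow pairs this median was 72.5%.

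Exact identity was rare even among the members. Both edges were equal in 3 pairs, the start alone or together with the end was equal in 70 and the end in 54. In 237 members each edge differed by no more than 5 bp. The first identical pair lay at chr5:145468763-145468912 and measured 150 bp. The second, at chr5:163946201-163946544, measured 344 bp, and the third, at chr10:82268261-82268454, measured 194 bp. The surroundings of the 3 pairs differed. The gap to the nearest other DHS of either list was 645 bp for the first, 3556 bp for the second and 197 kb for the third.

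The V2-IST DHS was the wider one in 765 members (60.4%) and the husk DHS in 470, and 31 members had equal widths. The share with a wider V2-IST DHS was 61.3% in the other narrow pairs and 61.2% in all narrow pairs, with an interval of -3.75 to 2.00 percentage points for the difference between members and other pairs. Where the narrower DHS measured less than 300 bp, the V2-IST DHS was wider in 60.9% of members and 67.5% of other pairs, a difference of -6.64 points (interval -11.4 to -2.06). In the classes of 300 to 499 bp and 500 to 999 bp the difference was 0.653 and 2.46 points, and both intervals included 0. Widths follow from the start and end positions that the rule used. These differences and their intervals therefore describe the selection, and no conclusion is drawn from them. The husk DHS lay inside the V2-IST DHS in 508 members (40.1%), whereas the reverse was found in 242 (19.1%). In 237 members both husk edges lay at higher coordinates than those of V2-IST, and in 276 both lay at lower ones. These 4 counts are given for members only, without the same shares in the other narrow pairs, so they show nothing particular to members. The size of the excess was bounded by the rule, since the 2 widths of a member cannot differ by more than 30 bp. The median width difference (V2-IST minus husk) was 4.5 bp in members and 46 bp in the other narrow pairs. The median signed differences (husk minus V2-IST) were 2 bp at the start and -2 bp at the end of members.

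The limit of 30 bp did not coincide with a break in the values. A summed difference of exactly 30 bp was found in 52 pairs and one of 31 bp in 49 pairs, and the median mean widths of these sets were 366 and 365.5 bp. One member at the limit had its V2-IST DHS at chr1:20033679-20033938 and its husk DHS at chr1:20033653-20033934, so that the start differed by 26 bp and the end by 4 bp. Just outside, a pair with a V2-IST DHS at chr1:5939081-5939276 and a husk DHS at chr1:5939065-5939261 differed by 16 and 15 bp. Summed differences of at most 10 bp occurred in 351 members, 11 to 20 bp in 461 and 21 to 30 bp in 454. Beyond the limit, 516 pairs had 31 to 40 bp, 519 had 41 to 50 bp and 508 had 51 to 60 bp. From 11 to 60 bp, the numbers per 10 bp thus lay between 454 and 519. A larger sum can, however, be made up of more combinations of a start and an end difference. Per combination, the number of pairs fell from 4.25 at 1 bp to 1.03 at 10 bp, 0.6 at 20 bp and 0.433 at 30 bp.

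**Figure D1:**
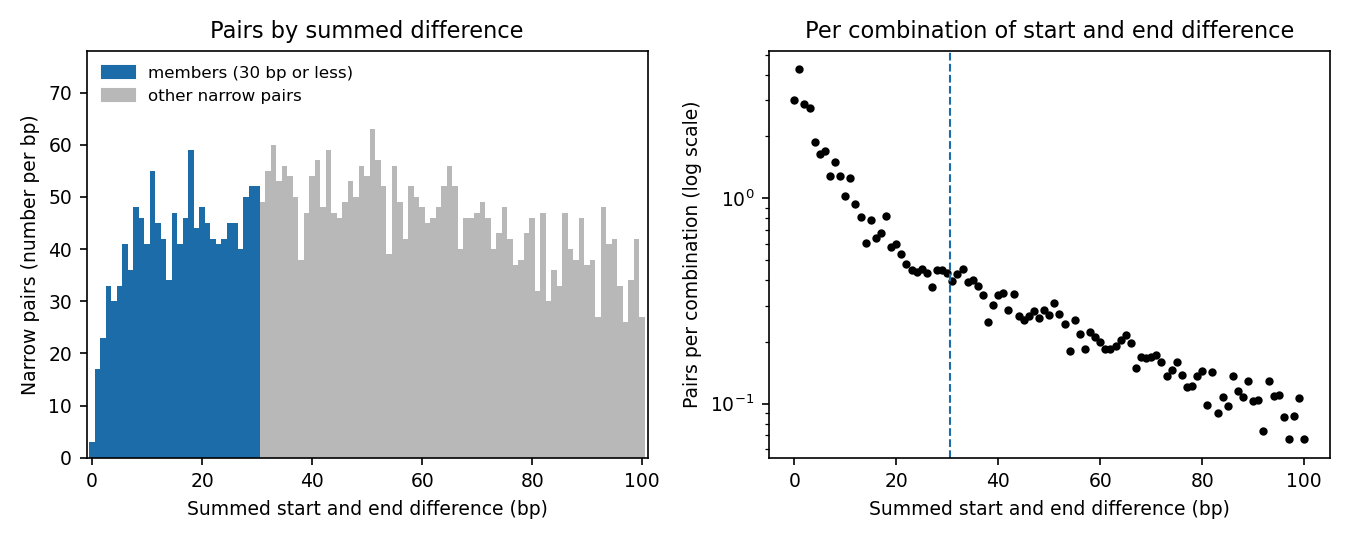
Narrow pairs by their summed start and end difference in bp, as the number of pairs at each bp (left, members in blue, other narrow pairs in grey) and as the number of pairs per possible combination of start and end difference (right, log scale, dashed line at the limit of 30 bp). The counts run on without a step at the limit, from 52 pairs at 30 bp to 49 at 31 bp, and the number per combination falls steeply over the first 20 bp.

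Near-equal starts and near-equal ends occurred together in part of the pairs. The rule used both differences, so the following shares are descriptions and no conclusion is drawn from them. They were not split by width, and the part of width in them was not tested. Of the 10056 narrow pairs, 25.5% had starts within 15 bp of each other and 25.8% had ends within 15 bp. Ends within 15 bp were found in 33.6% of the pairs whose starts were also within 15 bp (861 of 2560) and in 23.1% of the pairs whose starts were not (1732 of 7496). Both edges were within 15 bp in 8.56% of the narrow pairs. All of these 861 pairs are members, because their sums cannot exceed 30 bp.

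The members were narrower than the other narrow pairs, a property that depends on the rule since a fixed limit in bp is stricter for a wide DHS in relative terms. In V2-IST the members had a median width of 345 bp, and the middle 50% measured 261 to 462.75 bp. The husk DHSs of the members had a median of 339.5 bp and a middle 50% of 258.25 to 457 bp. The other narrow pairs had larger median widths, 493 bp in the V2-IST list and 442 bp in the husk list. When the narrow pairs were divided by the width of the narrower DHS, 21.1% of those from 100 to 199 bp were members (148 of 702, interval 18.2% to 24.3%). The share was 14.8% from 200 to 299 bp, 14.2% from 300 to 399 bp and 11.9% from 400 to 499 bp. From 500 to 599 bp it was 9.06%. From 600 bp upward it lay between 7.15% and 8.57% without a steady change.

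The narrowest member by mean width had a V2-IST DHS of 143 bp at chr10:92329082-92329224 and a husk DHS of 129 bp at chr10:92329099-92329227. The next measured 137 bp in V2-IST (chr9:114820619-114820755) and 138 bp in husk, and the third 146 bp (chr5:202562038-202562183) and 134 bp. At the other end of the range, the widest member measured 993 bp in V2-IST (chr1:104986694-104987686) and 1022 bp in husk. It was followed by a member of 994 and 1003 bp, respectively, at chr4:160312031-160313024 and one of 997 and 990 bp at chr6:107236202-107237198. These 3 pairs were also the ones closest to the width limit. Just above that limit, pairs with summed differences of 21, 25 and 23 bp lay at chr4:236563589-236564596 (1008 bp in V2-IST), chr4:25649604-25650614 (1011 bp) and chr9:61148617-61149628 (1012 bp). There were 31 members whose narrower DHS fell short of 1000 bp by up to 100 bp, and 31 pairs within the boundary limit in which it reached 1000 bp or exceeded it by less than 100 bp, so the width limit did not fall at a break either.

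Next, the position of the members along the chromosomes, which did not enter the rule, was examined. Each chromosome was divided into 10 equal parts, with the last DHS end on it as its length. Of the members, 355 (28.0%, interval 25.6% to 30.6%) lay in the parts at the chromosome ends, compared with 35.8% of the other narrow pairs (34.8% to 36.8%) and 34.8% of all narrow pairs. The difference was -7.76 percentage points, with an interval of -10.4 to -5.03. The 2 central parts held 15.0% of the members (13.1% to 17.1%) and 10.5% of the other narrow pairs, with 11.1% for all narrow pairs. Members thus lay farther inside the chromosomes. Their median distance to the nearer chromosome end was 44.5 Mb, against 33.3 Mb for the other narrow pairs.

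The share of narrow pairs that were members was 10.8% in the first part and rose to 20.4% in the fourth (90 of 441, interval 16.9% to 24.4%). It remained at 15.7% to 17.4% from the fifth to the seventh part and fell to 9.71% and 9.63% in the ninth and the last part. Since narrow DHSs could be distributed differently from wider ones, the comparison was repeated within width classes of the narrower DHS. Below 300 bp, 26.0% of members and 31.3% of other pairs lay in the end parts. From 300 to 499 bp the shares were 27.3% and 36.4%. From 500 to 999 bp they were 33.3% and 39.1%, with a difference interval of -11.6 to 0.404 percentage points. The lower share of members at the ends was therefore found in each class, with an interval that included 0 in the widest class. In the central parts, members had the higher share below 300 bp (17.5% and 12.9%) and from 300 to 499 bp (15.6% and 10.9%), whereas the values of the widest class, 8.91% and 7.92%, were not distinguishable.

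**Figure D2:**
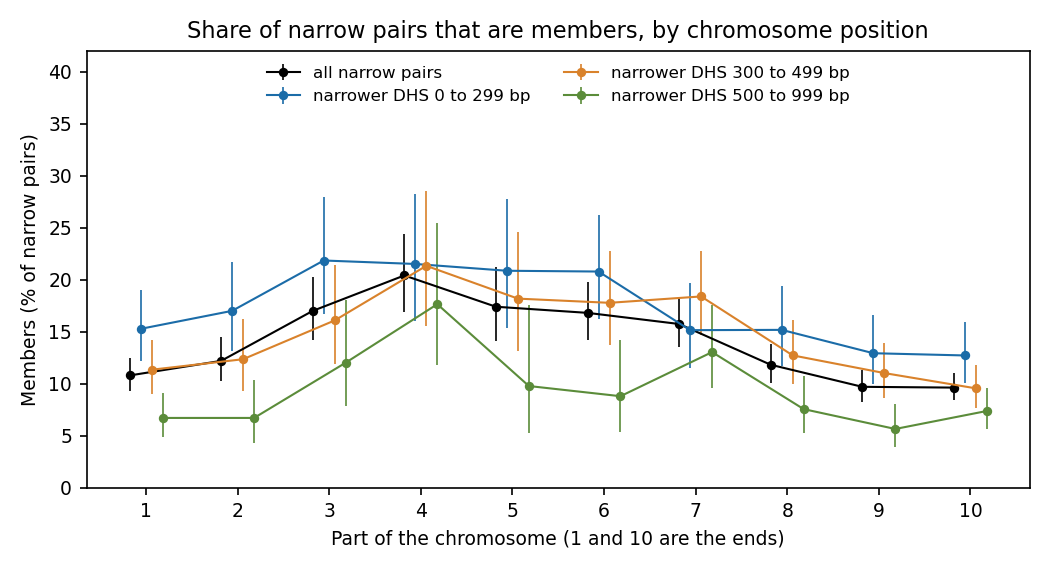
Share of narrow pairs that are members (in percent, with 95% Wilson intervals) in each of 10 equal parts of the chromosomes, all 10 chromosomes together, for all narrow pairs and for 3 width classes of the narrower DHS. Over all narrow pairs the share is 10.8% in the first part, 20.4% in the fourth and 9.63% in the last, and in every part except the seventh the narrowest class lies above both other classes.

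The share of members was then given by chromosome. The highest share was found on chromosome 4 (146 of 972 narrow pairs, 15.0%, interval 12.9% to 17.4%), followed by chromosome 2 with 14.9% and chromosome 10 with 14.5%. The lowest was found on chromosome 7 (88 of 861, 10.2%, interval 8.37% to 12.4%). The highest share was 1.47 times the lowest, and the intervals of chromosomes 4 and 7 did not overlap. Both were picked as the extremes of the 10 chromosomes, so no conclusion is drawn from this. In addition, 13 of the 146 members on chromosome 4 lay in a single stretch of 62.7 kb. Members had the larger median distance to the chromosome end on all 10 chromosomes. Their share in the end parts was lower than that of the other narrow pairs on 9 chromosomes. The exception was chromosome 4, where 25.3% of members and 24.1% of other pairs lay in the end parts.

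Members also lay near each other. Another member within 100 kb, measured between midpoints, was found for 286 members (22.6%, interval 20.4% to 25.0%), whereas 16.3% of the other narrow pairs had a member within this distance (15.6% to 17.1%) and 17.1% of all narrow pairs did. The difference was 6.25 percentage points, with an interval of 3.90 to 8.76. At 5 kb the shares were 7.82% for members (99 pairs, 6.47% to 9.43%) and 2.51% for the other narrow pairs (2.21% to 2.86%), with 3.18% over all narrow pairs. The ratio of the shares was thus larger at short distances. At 500 kb they were 54.3% and 51.0%, and the difference was much smaller than at 100 kb. At 1000 kb members still had the higher share, 76.2% (73.8% to 78.5%) against 72.1% (71.2% to 73.1%). Chromosomes 5 and 10 did not follow the pattern at 100 kb, with 19.1% of members and 19.3% of other pairs on chromosome 5 and 16.1% and 19.9% on chromosome 10. On the other 8 chromosomes members had the higher share.

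The difference was present in each width class. At 5 kb, 8.47% of members and 1.99% of other pairs had a member nearby when the narrower DHS was below 300 bp. The shares were 5.47% and 2.74% from 300 to 499 bp, and 11.2% and 2.71% from 500 to 999 bp. At 100 kb they were 21.6% and 15.7%, 21.1% and 16.9%, and 27.5% and 16.3% in the same order of classes. With a limit of 50 bp for the summed difference in place of 30 bp, the shares at 100 kb were 31.6% and 29.1%.

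**Figure D3:**
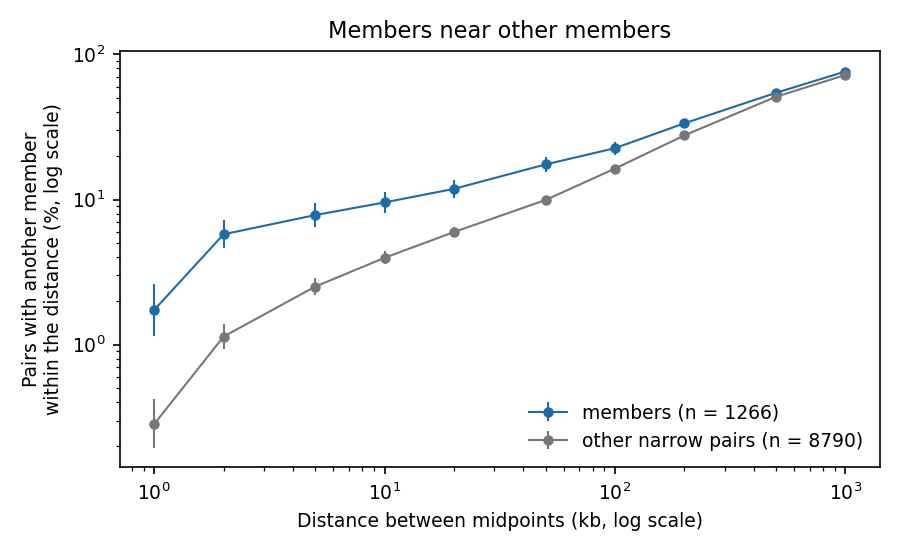
Share of members (blue) and of other narrow pairs (grey) that have another member within a given distance between midpoints (both axes on a log scale, bars are 95% Wilson intervals). The shares are 7.82% and 2.51% at 5 kb and 22.6% and 16.3% at 100 kb. The lines approach each other at 500 kb, and at 1000 kb the shares are 76.2% and 72.1%.

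The order of pairs along the chromosomes was then followed from one narrow pair to the next. After a member, the next narrow pair was a member in 17.4% of cases (220 of 1265, interval 15.4% to 19.6%), and after another narrow pair in 11.9% (11.2% to 12.6%). This depended on the distance to the next pair. When the midpoint of the next pair lay within 5 kb, that pair was a member in 36.3% of cases after a member (58 of 160, 29.2% to 43.9%) and in 9.89% after another pair (107 of 1082). Between 5 and 100 kb the shares were 14.9% and 10.9%, and beyond 100 kb they were 14.5% and 13.2%, with overlapping intervals. Seen from the distance to the nearest member, 42.2% of the narrow pairs with a member within 2 kb were members themselves (73 of 173). Between 2 and 5 kb the share was 17.7%, and beyond 1000 kb it was 10.9%. A few stretches contributed to the values at short distances. Of the members, 41 lay in 12 groups of at least 3 with neighbouring members within 5 kb. Values at 5 kb are not given without these groups.

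Most members nevertheless stood alone. Consecutive members formed 1046 runs, of which 890 were single members, and 376 members were part of a run of at least 2. The longest run comprised 13 members, followed by one of 8 members over 730 kb on chromosome 2 (chr2:79235414-79965138) and by runs of 5 members on chromosomes 1 and 9. Without the longest run, the shares at 100 kb were 21.8% for members and 16.3% for other pairs. Without all runs of at least 4 members they were 19.4% and 16.3%, and the next pair was a member in 14.1% of cases after a member and in 11.7% after another pair. Leaving these runs out lowers both shares of members by construction, because the runs were picked for holding members.

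The longest run lay on chromosome 4 (chr4:160251386-160314129) and spanned 62.7 kb. Each list had 16 DHSs there, none of them without a partner. The run was picked for holding members, and its 13 members are within 30 bp by the rule. In addition there were 3 wider pairs. Over all one-to-one pairs of at least 1000 bp, 10.3% stayed within 30 bp, and in this run 2 of the 3 wider pairs did. The exception was a pair at chr4:160281203-160283053 in V2-IST, whose start differed by 102 bp while its end differed by 1 bp. The summed differences of the members ranged from 1 to 24 bp with a median of 9 bp, and their DHSs measured 144 to 1003 bp. Within this picked run, DHSs of very different widths had near-equal edges next to each other. The closest match was a member of 374 bp in V2-IST (chr4:160255691-160256064) and 375 bp in husk, with equal starts and ends that differed by 1 bp. It was adjacent to a wide pair whose DHSs measured 2709 bp (V2-IST) and 2702 bp (husk).

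The run on chromosome 9 (chr9:90533140-90557023) contained 8 pairs over 23.9 kb, 5 of them members and thus within the limit by the rule. Its 3 wide pairs also stayed within the limit. They measured 2063, 2593 and 4928 bp in V2-IST and 2043, 2588 and 4919 bp in husk. The 5 members of this run measured 152 to 325 bp and had summed differences of 5 to 9 bp. On chromosome 1 (chr1:235237997-235244761), 5 members were found within 6.77 kb, with summed differences of 6 to 24 bp, and both lists held no other DHS there. On chromosome 5 (chr5:145468763-145476135), 4 members lay within 7.37 kb and began with the identical pair of 150 bp. A V2-IST DHS of 146 bp at chr5:145470886-145471031 stood between them without a partner in husk.

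**Figure D4:**
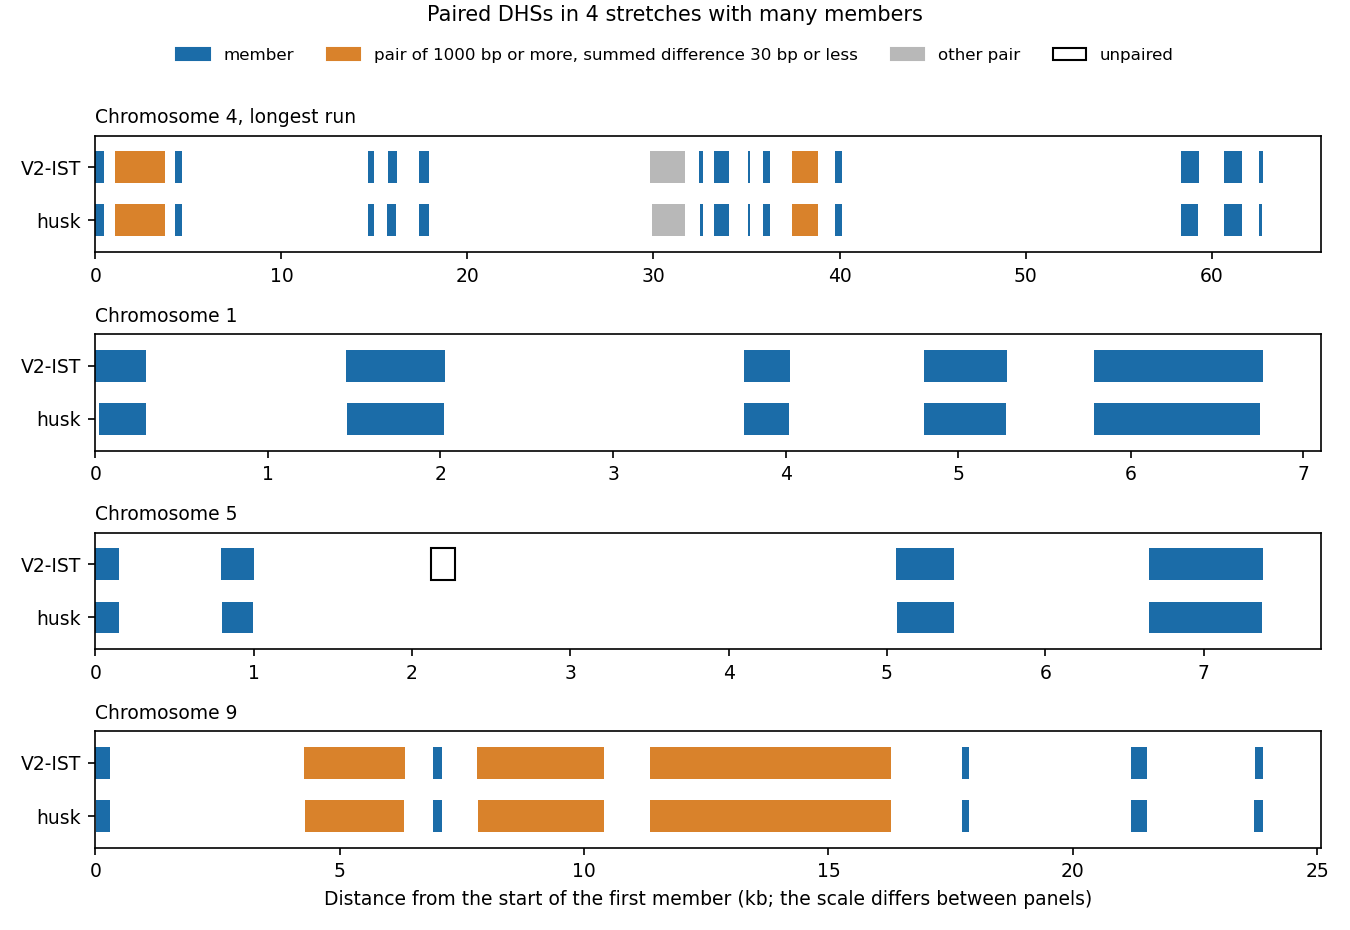
DHSs of V2-IST (upper row of each panel) and husk (lower row) in the stretches on chromosomes 4, 1, 5 and 9, drawn to scale by their distance in kb from the start of the first member, with a different scale in each panel. Members are blue, pairs of at least 1000 bp within the limit of 30 bp are orange, the pair with a start differing by 102 bp is grey, and the V2-IST DHS without a partner is an open box.

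The 100 kb windows with most members lay on chromosomes 4, 1 and 2. The window on chromosome 4 held 13 members and no DHS beyond the longest run, and that on chromosome 1 held 5 members among 7 one-to-one pairs. The window chr2:79843477-79943476 lay within the run of 8 members. It had 9 V2-IST DHSs and 8 husk DHSs. Of its 8 one-to-one pairs, 5 were members and so within the limit by the rule. The 3 wider pairs were within the limit too.

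The surroundings of the members contained fewer DHSs that were present in 1 list only. Such a DHS, without overlap in the other list, lay within 5 kb of 214 members (16.9%, interval 14.9% to 19.1%), of 23.1% of the other narrow pairs (22.3% to 24.0%) and of 22.4% of all narrow pairs. The difference was -6.24 percentage points, with an interval of -8.39 to -3.90. The median gap to the nearest DHS of this kind was 63562 bp for members and 34011 bp for the other narrow pairs. The difference was seen in each width class. The shares were 14.1% and 20.2% below 300 bp, 18.4% and 22.7% from 300 to 499 bp, and 19.4% and 26.3% from 500 to 999 bp. On chromosomes 5 and 6 the order was opposite, with 25.7% of members and 24.8% of other pairs on chromosome 5 and 19.4% and 18.3% on chromosome 6.

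Taken over all widths, members were also farther from other DHSs. A DHS of either list lay within 5 kb of 40.6% of the members and 45.3% of the other narrow pairs, and the median gap to the nearest other DHS was 9233 and 6468.5 bp, respectively. Below 300 bp, however, members and other pairs had nearly the same share with a DHS of either list within 5 kb, 37.1% and 36.8%. The median gap in this class was smaller for members, 11112 bp against 12222 bp. From 300 to 499 bp the shares were 39.3% and 44.4%, with a difference interval of -9.57 to -0.494 points. From 500 to 999 bp they were 50% and 53.8%, and the interval of -10.2 to 2.49 points included 0. The part of DHS density in the lower share of 1-tissue DHSs near members was not tested.

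Some members were far from any other DHS. The most isolated, at chr7:72474140-72474545 in V2-IST and chr7:72474141-72474536 in husk, had no other DHS of either list within 1125 kb. It was followed by members at chr8:55102464-55102662 (1106 kb) and chr10:47124211-47124390 (969 kb). In V2-IST they measured 406, 199 and 180 bp, and their summed differences were 10, 10 and 19 bp. Such gaps were not particular to members, since the largest gap among the other narrow pairs was 1.52755e+06 bp.

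Finally, the measures that the rule did not use were followed over the summed difference. The share in the end parts was 23.9% for pairs with at most 10 bp (interval 19.8% to 28.7%). It was 30.8% from 11 to 20 bp (26.8% to 35.2%) and 28.4% from 21 to 30 bp (24.5% to 32.7%). From 31 to 60 bp it was 33.0%, and above 240 bp 39.6%. The pairs with the closest boundaries had the lowest share, but the intervals of the member classes overlapped. Pairs with at most 10 bp had a median distance of 54.6 Mb to the end, against 29.6 Mb above 240 bp. The share with another member within 100 kb was 29.9% for pairs with at most 10 bp, 21.5% from 11 to 20 bp, 18.1% from 21 to 30 bp and 16.7% from 31 to 60 bp. At 5 kb this share was 14.0% for pairs with at most 10 bp (10.7% to 18.0%), 6.07% from 11 to 20 bp, 4.85% from 21 to 30 bp and, outside the limit, 3.24% from 31 to 60 bp. The share with a 1-tissue DHS within 5 kb did not change evenly. It was 14.2% up to 10 bp and 13.7% from 11 to 20 bp, but 22.2% from 21 to 30 bp, which was not distinguishable from 19.8% from 31 to 60 bp. For each of these shares, the interval of the members with 21 to 30 bp overlapped that of the pairs with 31 to 60 bp. The narrower DHS had a median width of 321 bp up to 10 bp, 343 bp from 21 to 30 bp and 454 bp above 240 bp, so that width changed along with the summed difference.

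**Figure D5:**
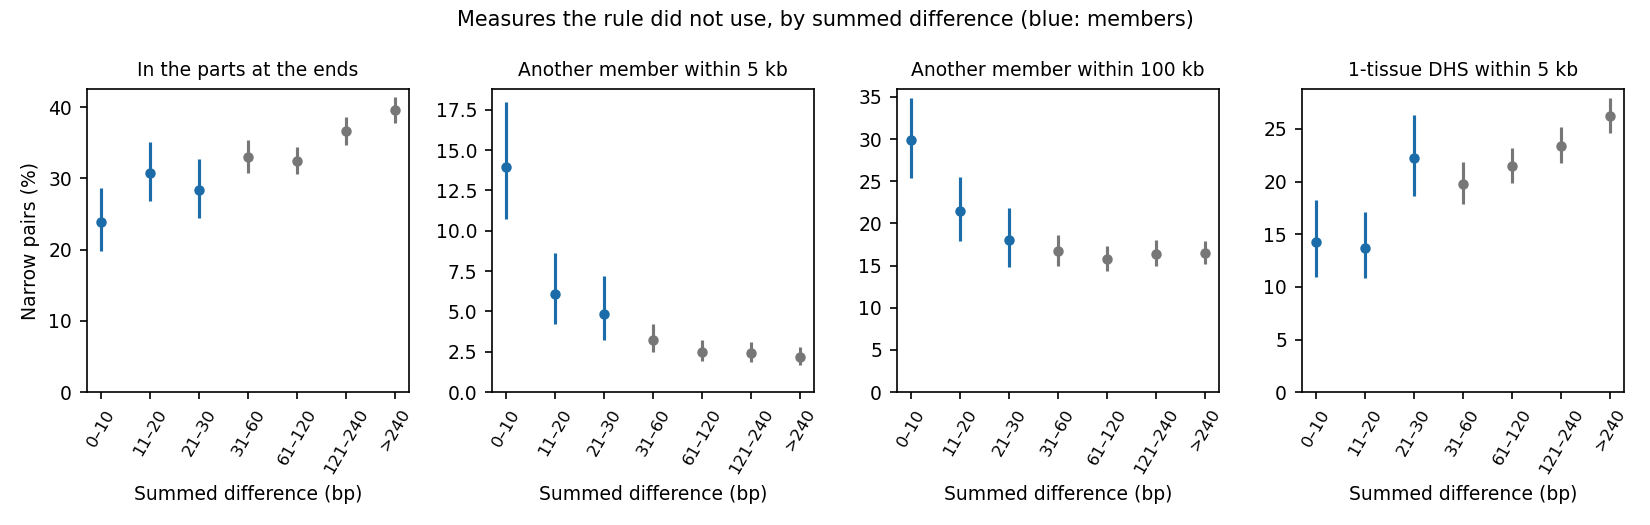
Shares of narrow pairs (in percent, with 95% Wilson intervals) that lie in the end parts of the chromosomes, that have another member within 5 kb or 100 kb, and that have a 1-tissue DHS within 5 kb, by classes of the summed difference in bp (blue for members, grey for other narrow pairs). Another member within 5 kb was found for 14.0% of pairs with at most 10 bp and 4.85% with 21 to 30 bp.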

How the data were processed

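DNase-seq was performed on V2-IST and husk of B73. Per the methods, the authors aligned reads with BWA, removed reads of low mapping quality with SAMtools, pooled technical libraries and ran MACS2 on every biological replicate, using naked DNA as the control. Peaks that overlapped largely between replicates were kept, so peaks of a single replicate are missing and edges depend on how the authors merged them. The deposited lists hold 3 columns, a chromosome, a start and an end in bp, and no score. Read depth was not used here, and its part in the width differences was not tested.

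Lists were read as deposited and paired as described. The members and all definitions were chosen with earlier results of these data known. Regions named were identical pairs, the 3 widest, narrowest and most isolated members, pairs at the limits, the 3 windows of 100 kb with most members and the longest run. The stretches on chromosomes 1, 5 and 9, the groups within 5 kb and the values without runs were added after the data were examined. GC content and motifs were not analysed here, because sequence of AGPv4 was not used here. Alternatives were other limits, widths, overlaps, distances and parts. The code was tested on simulated lists. Scripts ran under Python 3.11.15 with pandas 2.3.3, scipy 1.17.1 and numpy 2.4.6, and figures were drawn with matplotlib 3.10.9.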

Additional observations from a re-analysis of the deposited data

How the results depend on the processing

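Of 46 alternative values for 8 results, 32 stayed close to the reported ones, 14 moved and 0 changed direction. Only differences between members and other narrow pairs could change direction. The number of members, their median width, the share with a wider V2-IST DHS and the ratio between chromosomes are always positive. The number of members was 812 with a limit of 20 bp, 2301 with 50 bp, 764 with a limit of 5% of the mean width and 770 when both DHSs had to measure at least 300 bp. The difference in the share at the chromosome ends was -4.94 percentage points with 20 parts per chromosome, which make the end parts smaller. The difference in the share with a member within 100 kb was 9.04 points with a limit of 20 bp and 2.53 points with 50 bp, 3.11 points without runs of at least 4 members, and 3.32 points at a distance of 500 kb. For the next narrow pair it was 2.87 points with both DHSs at least 300 bp and 2.33 points without these runs. The difference in the share with a 1-tissue DHS nearby was -9.18 points with a limit of 20 bp, -2.10 points within 1 kb and -8.75 points within 10 kb. The cause of these changes was not tested. No paired analysis was possible because the replicates of a tissue had been merged into 1 list. For the same reason, no replicate could be left out and no stricter peak threshold could be tried. The depth behind each DHS is unknown here, so differences of a few bp between edges have no measurement error attached.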

Other observations

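Members were chained into groups when neighbouring members lay within 5 kb of each other, a choice made after the data were examined. This gave 29 groups of 2 members and 12 groups of at least 3, which together held 41 members on 7 chromosomes. The regions of the 12 larger groups contained 45 V2-IST DHSs and 44 husk DHSs, and 1 of them, from V2-IST on chromosome 5, was without a partner. All 44 one-to-one pairs of these regions, the 3 wider pairs included, were within 30 bp. The groups were picked for holding members, so the count describes them and has no comparison. On chromosome 2, 3 members and 2 wider pairs within the limit lay in 8.76 kb at chr2:176907287-176916047. On chromosome 1, 3 members lay at chr1:404133-410035, over 5.90 kb.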
